A study of Mus musculus with 2 samples.

Results

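Tissue-resident NK and ILC1-like cells were taken from live CD45+ cells sorted from mouse liver tumors and profiled by droplet-based 3′ single-cell RNA sequencing. A cell was a member when it had a UMI (a counted RNA molecule) of Ncr1 and of Klrb1c, at most 1 UMI of Cd3d, Cd3e and Cd3g together, no UMI of Klra4, Klra8, Cd79a or Csf1r, and at least 2 UMIs of Gzmc, Itga1 and Cxcr6 together. The members were therefore chosen by their measured values of these genes, and the levels of these genes in them are a description. This gave 441 members of 26498 barcodes, of which 25814 had at most 6000 genes and at most 25% mitochondrial UMIs and were kept.

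The tumors were raised in wild-type male C57BL/6 J mice that were 6 to 8 weeks old when the model was set up, and the age at sampling was not given. Plasmids carrying human MYC with luciferase, a Cas9 plasmid with a guide against Trp53, and sleeping beauty transposase had been injected through the tail vein under hydrodynamic pressure. Mice of both groups received lenvatinib, an inhibitor of several receptor tyrosine kinases, at 30 mg/kg from day 12 after injection for 25 days to obtain resistance. They then received lenvatinib at 30 mg/kg, either alone (lenvatinib library) or with palbociclib, an inhibitor of the kinases CDK4 and CDK6, at 100 mg/kg (combo library). There was 1 library per group, and the number of mice behind each was not given in the sources used here. Cells are not replicates of a treatment, so no test between the libraries was possible, and treatment and library cannot be told apart. All intervals below are 95% intervals of counting error only, and a ratio of at least 2 or at most 0.5 stands in for a test.

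Natural killer (NK) cells and type 1 innate lymphoid cells (ILC1) are related lymphocytes without antigen receptors that share the receptors NKp46 (Ncr1) and NK1.1 (Klrb1c). Circulating NK cells pass through the liver in the blood, depend on the transcription factor Eomes, and as they mature take up Ly49 receptors encoded by the Klra genes. ILC1 of the mouse liver stay in the tissue, carry the collagen-binding integrin CD49a (Itga1) and the chemokine receptor Cxcr6, and in the main lack Eomes and Klra receptors for class I molecules. In tumors, NK cells can take up residency genes, so cells of both origins can share these markers.

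The lenvatinib library held 282 members with a median of 7631 UMIs (973 to 37773), and the combo library held 159 members with a median of 8935 UMIs (2809 to 29651). The summed counts behind the levels were 2493735 and 1576269 UMIs. The libraries shared 49 barcodes, of which 0 belonged to members. A doublet caller marked 4 members in each library.

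Of the 5 markers of the label, Ncr1, Gzmc, Itga1 and Cxcr6 were in the rule and so are no check of it. Xcl1, a chemokine that draws cross-presenting dendritic cells and was not in the rule, had a UMI in 279 of 282 members under lenvatinib and in 159 of 159 under combo, but also in 94.5% and 94.7% of Ly49-positive NK cells (defined below), so its presence does not tell the classes apart. Of the genes of the rule, Gzmc had a UMI in 53.9% and 72.3% of members, Itga1 in 69.1% and 64.2%, and Cxcr6 in 48.9% and 62.3%. The 12 markers of other innate lymphoid cells summed to 123 and 91.3 CPM (UMIs per 1000000 UMIs of the class) in members. They summed to 82.9 and 51.9 CPM in Ly49-positive NK cells, 48.55 and 30.02 CPM in B cells, and 205.5 and 153 CPM in T cells. In members 5 and 6 of the 12 were at 0, among them Il13, Il17rb, Il23r and Il22 in both libraries. The 16 T cell markers summed to 1353 and 1250 CPM, against 5619 and 5888 CPM in T cells and 1245 and 1157 CPM in Ly49-positive NK cells, and none was at 0. The members also held Eomes in part of the cells, as described below, so the label covers cells with and without this NK cell factor. Zfp683, which encodes Hobit, a residency factor of liver ILC1, was near the limit of detection at 3.61 CPM under lenvatinib and 9.52 CPM under combo.

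A pair of further classes of the same lineage served for comparison and are called here by their gates. Both met the Ncr1, Klrb1c, Cd3, Cd79a and Csf1r limits (the NK gate). Ly49-positive NK cells had a UMI of Klra4 or Klra8 (1279 cells under lenvatinib and 544 under combo), and other Ly49-negative NK cells had none and did not reach the limit for Gzmc, Itga1 and Cxcr6 (532 and 219 cells). Among Ly49-positive NK cells, 240 and 62 also reached that limit. The word negative refers to Klra4 and Klra8 only, since part of the other Ly49-negative NK cells carried Klra7, a further Ly49 gene. Where Gzmc, Itga1 and Cxcr6 summed to 0, Klra7 had a UMI in 43.75% (lenvatinib) and 29.94% (combo) of them. Where the sum was 1, the shares were 39.4% and 15.4%.

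Members made up 1.99% of kept cells under lenvatinib (282 of 14201; exact Clopper-Pearson interval 1.76 to 2.23) and 1.37% under combo (159 of 11613; 1.17 to 1.60). The ratio was 0.690, and dividing opposite interval ends gave 0.523 to 0.906. Ly49-positive NK cells went from 9.01% to 4.68% of kept cells (ratio 0.520, 0.454 to 0.595) and other Ly49-negative NK cells from 3.75% to 1.89% (ratio 0.503, 0.404 to 0.625). The range for members overlapped those of both other classes. Within the NK gate, members were 13.5% of 2093 cells under lenvatinib (12.04 to 15.01) and 17.2% of 922 cells under combo (14.9 to 19.8), and the ratio of 1.28 had a range (0.990 to 1.65) on both sides of 1.

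The lower share of members under combo was seen in those with a detected UMI of Eomes or another Ly49 gene. Klra1, Klra3, Klra7 and Klra9 encode inhibitory Ly49 receptors and were not in the rule, although they are close in sequence to Klra4 and Klra8, so that counts can be split among them. Under lenvatinib 165 members had a UMI of Eomes or of 1 of these 4 genes, which is 58.5% of members (52.5 to 64.3), against 38 under combo, which is 23.9% (17.5 to 31.3). As a share of kept cells this stratum was 1.16% (0.992 to 1.35) and 0.327% (0.232 to 0.449), a ratio of 0.282 (0.171 to 0.452). Members with neither were 117 and 121 cells, 0.824% (0.682 to 0.987) and 1.04% (0.865 to 1.24) of kept cells, a ratio of 1.27 (0.877 to 1.82). Within the NK gate they were 5.59% (4.64 to 6.66) and 13.1% (11.0 to 15.5), a ratio of 2.35 (1.65 to 3.33). The median depth of members was higher under combo, at 8935 UMIs, than under lenvatinib, at 7631. The strata were set after the data were seen and rest on UMIs detected without thinning. Eomes and Klra7 were also lower under combo in Ly49-positive NK cells. There Eomes had a UMI in 84.1% and 71.9% of cells, and Klra7 was at 445 and 277 CPM. Whether fewer such cells or lower levels of these genes gave the lower share of this stratum was not tested.

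**Figure D1:**
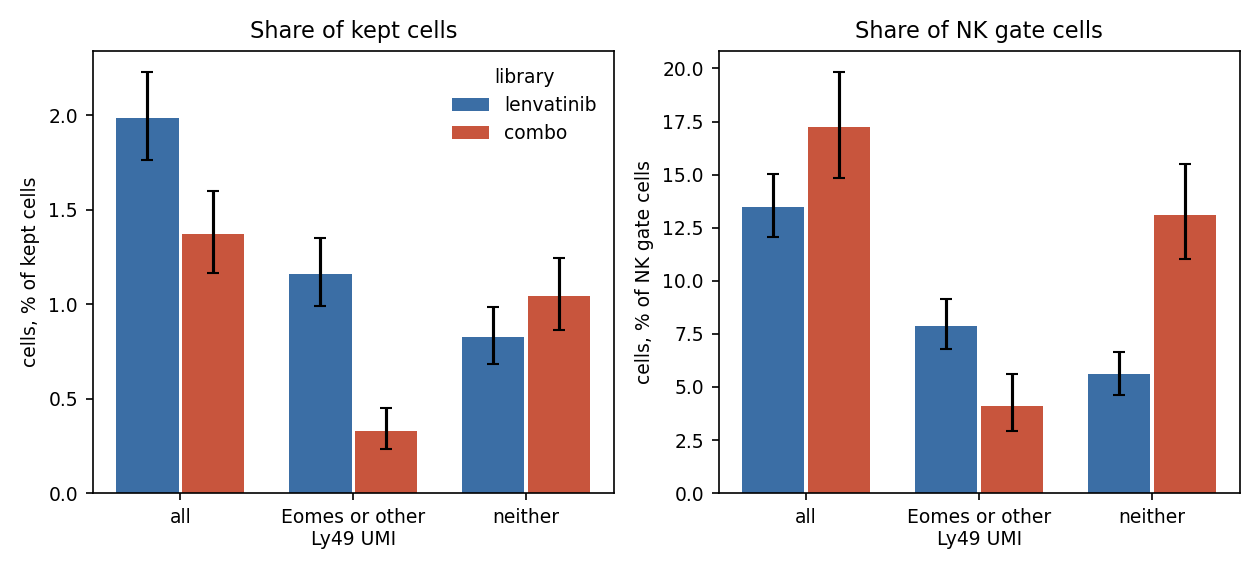
Bars give members as a percentage of all kept cells (left panel) and of NK gate cells (right panel) in the lenvatinib and combo libraries, with exact 95% intervals of counting error, for all members, for those with a UMI of Eomes, Klra1, Klra3, Klra7 or Klra9, and for those with neither. Members with neither were 5.59% of NK gate cells under lenvatinib and 13.1% under combo, while those with Eomes or another Ly49 UMI were 7.88% and 4.12%.

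Eomes, on chromosome 9 at 118478212 to 118486132 (mm10, plus strand), was present at 95.04 CPM in members under lenvatinib and at 21.6 CPM under combo, a ratio of 0.227 (0.154 to 0.326). Its level in Ly49-positive NK cells was 344 and 218 CPM, a ratio of 0.635. After each cell was thinned to 2000 UMIs, so that depth was equal, Eomes had a UMI in 43 of 279 members under lenvatinib (15.4%, 11.4 to 20.2) and in 5 of 159 under combo (3.14%, 1.03 to 7.19). Without thinning the shares were 34.0% and 11.3%. B cells, which should lack Eomes and had median depths of 3272 and 3503 UMIs, gave 2.99% (1.44 to 5.42) and 0.239% (0.00606 to 1.33) after the same thinning. Members had Eomes less often than Ly49-positive NK cells (48.6% and 35.98% after thinning) in both libraries. Under combo the interval of the members overlapped that of the B cells.

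Compared with Ly49-positive NK cells within each library, members were higher at least 2-fold in both libraries for 37 of 2680 genes (1.38%) and lower for 20 (0.746%), with the genes of the rule left out. Of the residency and ILC1 genes that the rule did not use, 10 of 20 were higher and 1 lower, with a median ratio of 2.14, where the median over all genes was 1.04 in the lenvatinib and 1.01 in the combo library. This list and those below were chosen with earlier results of these data known, so counts from them are a description. Tmem176a and Tmem176b, which encode ion channel proteins of intracellular membranes, were at 137 and 150 CPM in members against 9.20 and 8.44 CPM in Ly49-positive NK cells under lenvatinib, and at 298 and 324 CPM against 20.7 and 31.9 CPM under combo. Cd200r1, an inhibitory receptor, was 8.33 and 23.4 times as high, at 52.9 and 79.9 CPM in members. Rora, a transcription factor needed for innate lymphoid cell development, was at 187 CPM in members under lenvatinib and 251 CPM under combo, 7.49 and 6.72 times the level in Ly49-positive NK cells. Tnfsf10, which encodes the death ligand TRAIL, was at 134 and 110 CPM, 4.54 and 7.58 times as high. Ikzf2, which encodes the transcription factor Helios, was 3.38 and 4.97 times as high. All these genes were higher in members in both libraries, and the 1 lower residency gene was Socs3, a feedback inhibitor of cytokine signals (0.427 and 0.476).

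Of 20 cytokine receptors and feedback genes 4 were higher in members and 1, Socs3, lower, with a median of 1.004. Il7r, the alpha chain of the interleukin-7 receptor, was 4.20 times as high as in Ly49-positive NK cells under lenvatinib and 6.68 times under combo, and Il2ra, the alpha chain of the interleukin-2 receptor, 3.94 and 6.17 times. The other higher genes of the list were Il21r (2.41 and 2.31 times) and Cish. Of 12 inhibitory receptors and checkpoints measured, 5 were higher and 0 lower. These were Cd200r1, Ctla4 (2.89 and 4.21 times), Klrb1b (3.25 and 3.12 times), Klrc1, which encodes NKG2A (2.26 and 2.85 times), and Cish, an intracellular brake on cytokine signals (2.07 and 2.90 times). Part of these levels was shared by other Ly49-negative NK cells, which had 447 and 470 CPM of Klrc1 against 445 and 508 CPM in members, 41.8 and 169 CPM of Il7r against 55.3 and 169 CPM, and 90.4 and 269 CPM of Rora against 187 and 251 CPM. Tnfsf10 was at 42.6 and 42.7 CPM and Cd200r1 at 16.8 and 31.0 CPM in those cells, against 134 and 110 CPM and 52.9 and 79.9 CPM in members. Ikzf2 was at 190 and 135 CPM in members and Il2ra at 54.9 and 66.0 CPM. In those cells with no UMI of Gzmc, Itga1 or Cxcr6, Ikzf2 was at 125 and 71.7 CPM and Il2ra at 21.4 and 41.5 CPM. With 1 such UMI, Ikzf2 was at 117 and 146 CPM and Il2ra at 23.5 and 45.7 CPM. Cd226, an activating receptor, was 4.39 and 4.70 times as high as in Ly49-positive NK cells. It was the only one higher of 20 activating receptors and adaptors, and Sh2d1a and Cd247 were lower. Inpp4b, a lipid phosphatase, was 5.76 and 8.34 times as high, Bcl2a1d, a survival gene with near-identical copies among which counts can be split, 6.60 and 5.11 times, and Sema6d 6.78 and 7.48 times. Tcrg-C4, a constant segment of the T cell receptor gamma chain, was 12.5 and 11.7 times as high, at 74.6 and 102 CPM, while Trdc, the constant segment of the delta chain, was 0.320 and 0.144 times as high.

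The genes lower in members included 7 of 19 measured genes of circulating and mature NK cells, of which 0 were higher (median ratio 0.408). Among these, besides Eomes, were Itga2, which encodes CD49b (0.417 and 0.177), Itgam (0.335 and 0.390), Klf2, a factor that keeps egress receptors on (0.475 and 0.326), Klra1 (0.218 and 0.0851) and Klra7 (0.365 and 0.0757). The last 2 share sequence with genes of the rule, so their lower level is not independent of it. Myb (0.286 and 0.136) and Cd55 (0.253 and 0.216) were lower too. Gzma and Mef2c were lower at least 2-fold only under combo (Gzma 0.588 and 0.116, Mef2c 0.527 and 0.0891). Tbx21, which encodes the factor T-bet that both NK cells and ILC1 need, was at 119 and 77.4 CPM in members, 1.26 and 1.37 times the level of Ly49-positive NK cells. Xcl1 was at 3502 and 3623 CPM in members against 1936 and 2110 CPM, 1.81 and 1.72 times, and so did not reach the 2-fold limit.

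**Figure D2:**
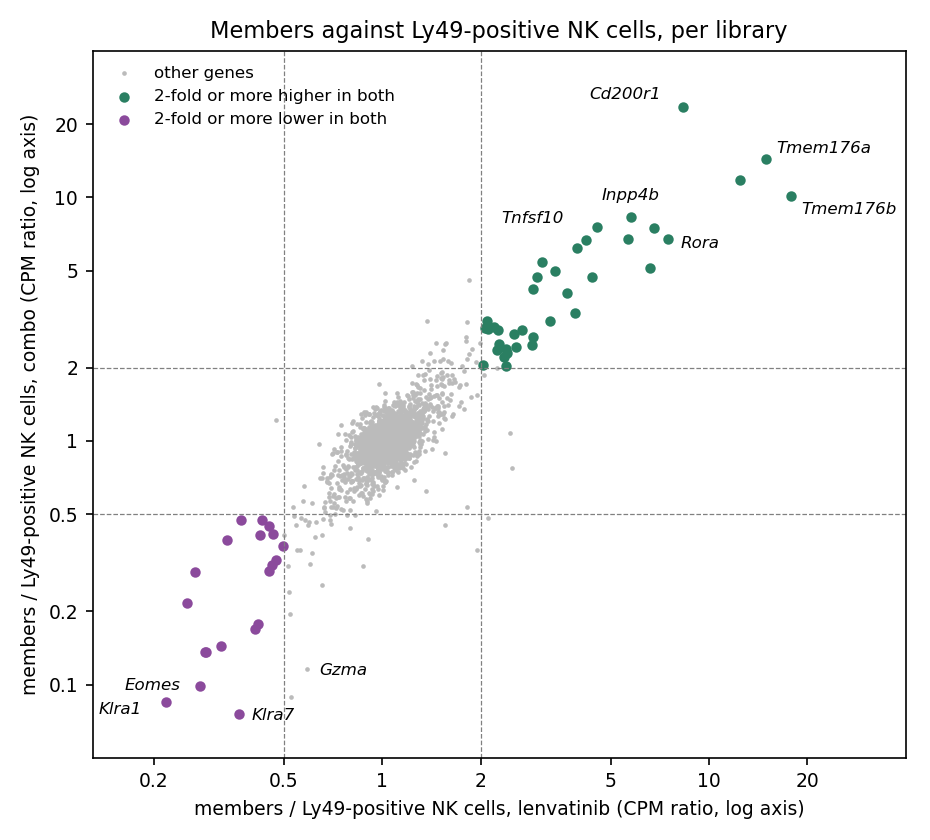
Each point is 1 gene of 2680, with its CPM in members over its CPM in Ly49-positive NK cells in the lenvatinib library (x, log axis) and in the combo library (y, log axis). Green marks the 37 genes at least 2-fold higher in both and purple the 20 at least 2-fold lower in both, dashed lines mark 2-fold, and Gzma lies at 0.588 on x and 0.116 on y.

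Between the libraries, 38 of 3182 measured genes were at least 2-fold higher in members under combo (1.19%) and 81 at least 2-fold lower (2.55%), with a median ratio over all genes of 0.897. In Ly49-positive NK cells 32 of 3018 genes were higher (1.06%) and 25 lower (0.828%), with a median of 0.943. Of the genes measured in both classes, 26 were higher in members, 19 of which were higher in Ly49-positive NK cells too, and 66 were lower, 13 of which were lower there too. Both comparisons rest on the same 2 libraries.

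Gzma was the granule gene that passed 2-fold between the libraries in members. It encodes a serine protease of cytotoxic granules (chromosome 13, 113093825 to 113100981, minus strand) and was at 2696 CPM (2632 to 2761) in members under lenvatinib and at 523 CPM (488 to 560) under combo, a ratio of 0.194 (0.180 to 0.209). In Ly49-positive NK cells it was at 4588 and 4503 CPM, a ratio of 0.981, but in those of them that reached the limit for Gzmc, Itga1 and Cxcr6 it was at 4936 and 2524 CPM. In other Ly49-negative NK cells it was at 3728 and 2171 CPM, a ratio of 0.582. After thinning, 52.0% of members (45.9 to 58.0) had a Gzma UMI under lenvatinib and 16.4% (10.97 to 23.03) under combo, against 87.5% and 87.6% of Ly49-positive NK cells. In B cells the shares were 17.9% (13.9 to 22.4) and 3.83% (2.20 to 6.14), and the level was 128 and 17.4 CPM, so the Gzma found in cells that should lack it also was lower under combo. In members the median count per cell was 2 under lenvatinib and 0 under combo, and 1 combo member held 20.2% of the combo UMIs.

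The difference in Gzma varied in size between the strata. In members with neither Eomes nor another Ly49 UMI it was at 1006 and 115 CPM, a ratio of 0.114 (0.0948 to 0.137), with a UMI in 30.2% (22 to 39.4) and 7.44% (3.46 to 13.6) of cells after thinning. In members with Eomes or another Ly49 UMI it was at 3692 and 1672 CPM, a ratio of 0.453 (0.418 to 0.490). In the members with an Eomes UMI, 96 and 18 cells, it was at 3408 and 2653 CPM. That ratio of 0.779 (0.711 to 0.851) did not pass 2-fold. After thinning, 72.9% (62.9 to 81.5) and 66.7% (41.0 to 86.7) of those cells had a Gzma UMI, with overlapping intervals.

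The other granule genes did not follow Gzma, and it was the 1 gene lower of 12 measured granzyme, perforin and granule genes, with 0 higher (median ratio 1.08). Gzmb was at 1164 CPM in members under lenvatinib and 1889 CPM under combo, and Ly49-positive NK cells had 739 and 1012 CPM. Prf1, the pore-forming protein perforin, was at 276 and 290 CPM. Gzmc, a gene of the rule, was at 1293 and 2543 CPM, a value given as description. Nkg7 was at 1486 and 1625 CPM.

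The 3 genes that let a cell in did so in different mixes. Members with Itga1 alone of the 3 were 64 cells (22.7% of members) under lenvatinib and 13 cells (8.18%) under combo, while members with all 3 were 46 (16.3%) and 43 (27.0%). Members with Gzmc UMIs were 152 and 115. Under lenvatinib, members with Itga1 alone had 5620 CPM of Gzma and 179 CPM of Eomes, whereas members with all 3 had 1338 and 23.9 CPM. Under combo, members with all 3, with Gzmc and Cxcr6, or with Itga1 and Cxcr6 held no Eomes UMI, and their Gzma was at 215, 11.9 and 279 CPM. In 6 of the 7 mixes Gzma was lower under combo. The exception was Gzmc alone (1254 and 1921 CPM), where 80.5% of 41 cells had a Gzma UMI under lenvatinib and 33.3% of 21 cells under combo.

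**Figure D3:**
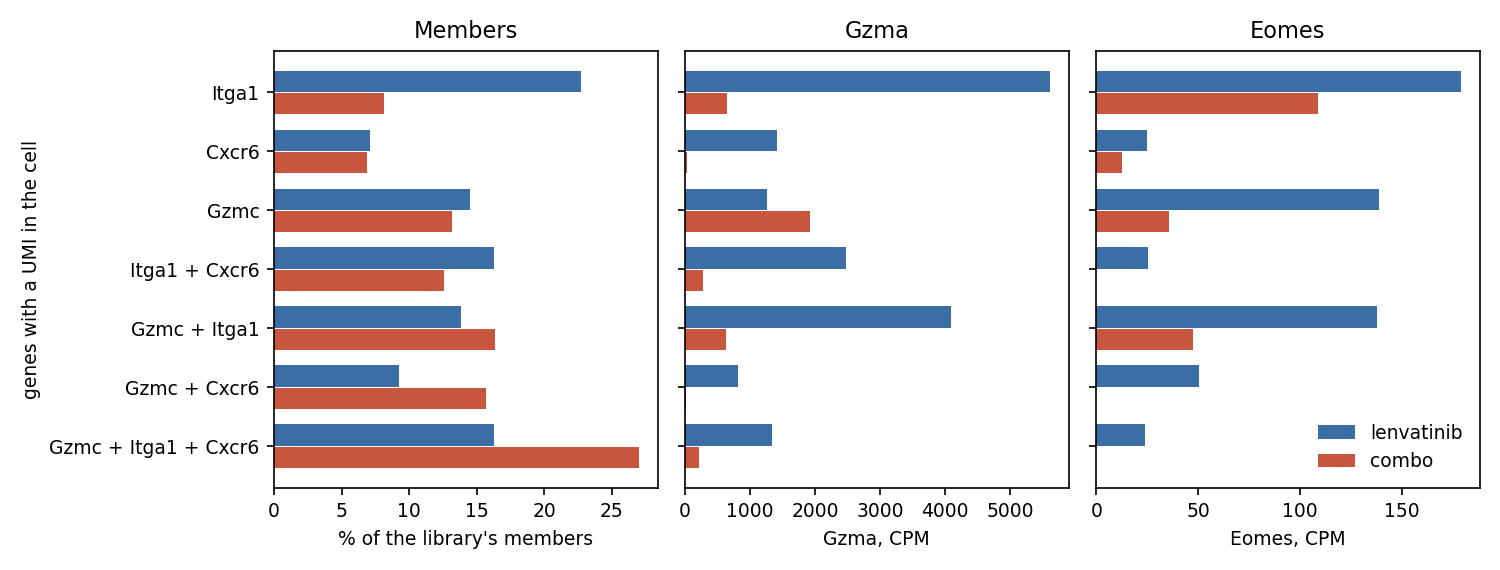
Bars give, for each mix of Gzmc, Itga1 and Cxcr6 with a UMI in a member, the percentage of the library's members (left panel), the summed Gzma level in CPM (middle) and the summed Eomes level in CPM (right) in the lenvatinib and combo libraries. Members with Itga1 alone were 22.7% under lenvatinib and 8.18% under combo, and Gzma there was at 5620 and 644 CPM.

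At the edge of the rule, members with a sum of exactly 2 UMIs numbered 70 and 27, and NK gate cells with a sum of 1 that were left out numbered 132 and 52. Eomes was at 144 and 31.2 CPM just inside and at 250 and 56.1 CPM just outside. Il7r was at 68.4 and 200 CPM inside and 30.7 and 187 CPM outside, and Gzma at 4094 and 949 CPM inside and 3620 and 1750 CPM outside. These values are a description with no test.

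Of 16 measured genes of circulating and mature NK cells, 0 were higher in members under combo and 7 lower, with a median ratio of 0.569, while in Ly49-positive NK cells 2 of 21 were higher and 0 lower, with a median of 0.981. The genes lower in members included, besides Gzma and Eomes, Klra7 at 162 and 20.9 CPM, Klra9 at 147 and 60.3 CPM, Klra3 at 101 and 43.8 CPM, and Zeb2, a factor of late NK cell maturation, at 59.7 and 28.5 CPM. Lgals1, which encodes galectin-1, was at 888 and 613 CPM. Among transcription factors 4 of 33 were lower and 0 higher (median 0.717; Ly49-positive NK cells 0.839). These were Eomes, Zeb2, Tcf7, a factor of early NK cells and stem-like T cells (116 and 49.5 CPM), and Nr4a2, an immediate early factor (322 and 150 CPM). Id2, which all innate lymphoid cells need, was at 1134 and 1183 CPM, and Bhlhe40 at 863 and 674 CPM.

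In members with neither Eomes nor another Ly49 UMI, Tcf7 was at 59.5 and 44.7 CPM (ratio 0.752, 0.504 to 1.12), so its lower level did not reach the limit there. Klf2, a gene of the circulating NK cell list, was at 314 and 458 CPM in members, a ratio of 1.46, and at 661 and 1406 CPM in Ly49-positive NK cells.

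Of 23 measured residency and ILC1 genes, 3 were higher under combo and 1 lower (median 1.13, against 1.02 in Ly49-positive NK cells). Il7r (chromosome 15, 9505788 to 9530176, minus strand) was at 55.3 CPM under lenvatinib and 169 CPM under combo, a ratio of 3.05 (2.47 to 3.77). After thinning it had a UMI in 11.1% (7.67 to 15.4) and 23.9% (17.5 to 31.3) of members, in 1.83% and 4.43% of Ly49-positive NK cells, and in 1.79% and 2.87% of B cells. It was not particular to members, since other Ly49-negative NK cells had 41.8 and 169 CPM. In members with neither Eomes nor another Ly49 UMI it was at 83.3 and 184 CPM, a ratio of 2.21 (1.70 to 2.90). Tmem176a and Tmem176b were 2.17 and 2.16 times as high under combo in members and 2.25 and 3.77 times in Ly49-positive NK cells. In members without another Ly49 UMI their ratios were 1.66 and 1.58, under the 2-fold limit, and in members with another Ly49 UMI 2.06 and 2.26. Without Eomes the ratios were 1.72 and 1.59, and with Eomes 1.27 and 2.37. The lower gene was Tcf7. Xcl1 had a ratio of 1.03, and Rgs1, a brake on chemokine receptor signals, was at 1322 and 1607 CPM.

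Among inhibitory receptors and checkpoints 1 of 15 was higher and 0 lower (median 1.16). Ctla4, a checkpoint receptor best known from T cells, was at 58.9 CPM under lenvatinib and 147 CPM under combo, a ratio of 2.49 (2.01 to 3.08), and Ly49-positive NK cells had 20.4 and 34.8 CPM. After thinning, 6.81% (4.15 to 10.4) and 19.5% (13.6 to 26.5) of members had a Ctla4 UMI, against 3.28% and 1.44% of B cells. The ratio was 2.58 (1.91 to 3.54) in members with neither Eomes nor another Ly49 UMI. Klrc1 was at 445 and 508 CPM and Klre1 at 558 and 500 CPM. Cytokine receptors and feedback genes had 1 of 24 higher, Il7r, and 0 lower (median 1.10). Il2rb, the beta chain shared by interleukin-2 and interleukin-15 receptors, was at 1552 and 999 CPM, and Jak1 at 483 and 405 CPM.

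**Figure D4:**
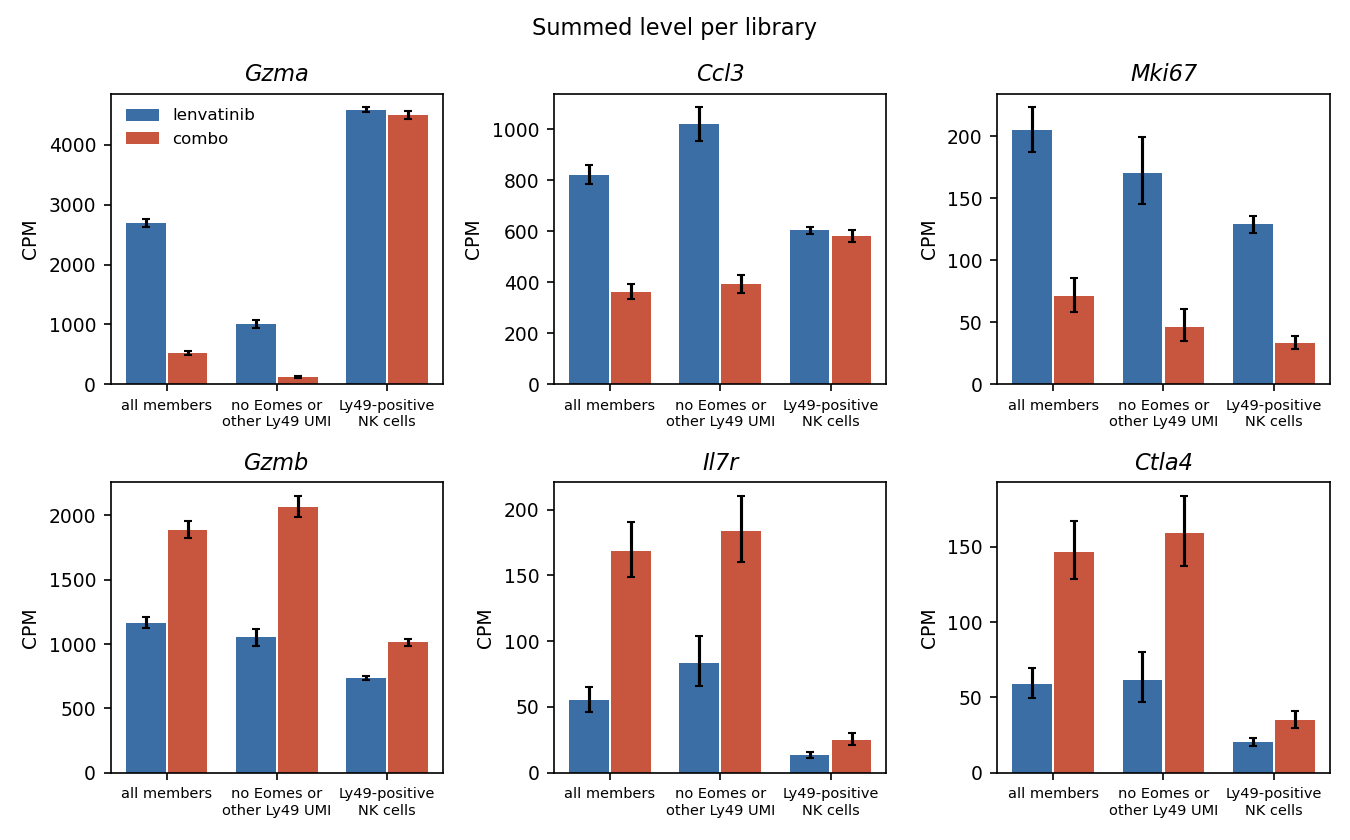
Bars give the summed level in CPM with exact Poisson 95% intervals for 6 genes in the lenvatinib and combo libraries, in all members, in members with neither Eomes nor another Ly49 UMI, and in Ly49-positive NK cells. Gzma was at 2696 and 523 CPM in all members but at 4588 and 4503 CPM in Ly49-positive NK cells, and Il7r at 55.3 and 169 CPM in all members.

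Of 12 cytokines and chemokines, 3 were lower under combo and 0 higher (median 0.885). Ccl3, a chemokine for monocytes and lymphocytes, was at 822 and 364 CPM in members, a ratio of 0.442 (0.403 to 0.486), and at 603 and 582 CPM in Ly49-positive NK cells. With neither Eomes nor another Ly49 UMI the ratio was 0.385 (0.343 to 0.431). Ccl1 (114 and 34.3 CPM) and Cxcl10 (233 and 79.3 CPM) were lower too, with 32.6% and 27.1% of the lenvatinib UMIs of each in 1 cell. The most abundant genes of the list, Ccl5 and Xcl1, were at 4436 and 4324 CPM and at 3502 and 3623 CPM. Ifng was at 295 and 257 CPM.

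Of 19 measured chemokine receptors and adhesion genes, 3 were lower, among them Ccr2 (357 and 173 CPM) and Itga4 (277 and 138 CPM), and 0 higher (median 0.764, against 0.915 in Ly49-positive NK cells). The integrins Itgb1 (479 and 301 CPM) and Itgal (428 and 289 CPM) were the most abundant under lenvatinib. Of 22 activating receptors and adaptors 2 were lower, Sh2d1a (70.2 and 27.9 CPM) and Syk (54.1 and 24.7 CPM), and 0 higher (median 1.01). Fcer1g was at 1709 and 2133 CPM and Tyrobp at 1458 and 1457 CPM.

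Of 14 genes of G2 and mitosis, 6 were lower in members under combo and 0 higher (median 0.613), and in Ly49-positive NK cells 4 of 10 were lower (median 0.628). Mki67, which marks dividing cells, was at 205 and 71.1 CPM in members (ratio 0.347, 0.280 to 0.426) and at 129 and 33.5 CPM in Ly49-positive NK cells. Ube2c (0.295), Cenpf (0.345) and Top2a (0.384) had the lowest ratios beside it, and the most abundant genes of the list, Hmgb2 and Stmn1, were at 1336 and 950 and at 299 and 317 CPM. Cycling cells were those with UMIs of 2 or more of 10 mitosis genes after thinning. These were 27 of 279 members under lenvatinib (9.68%, 6.47 to 13.8) and 10 of 159 under combo (6.29%, 3.06 to 11.3). The ratio of 0.650 had a range (0.222 to 1.74) on both sides of 1. With 1 such gene as the limit for cycling cells the ratio was 0.395 (0.189 to 0.774). The cycling shares of Ly49-positive NK cells were 6.11% and 1.66%, and those of B cells were 2.69% and 0.718%. Genes of S phase had 0 of 12 higher and 0 lower (median 1.02), with Pcna at 251 and 213 CPM and Slbp at 153 and 156 CPM. Genes of the CDK4/6 pathway had 0 of 10 higher and 0 lower (median 0.876), with Ccnd2 at 472 and 382 CPM and Ccnd3 at 158 and 186 CPM.

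Of 12 interferon-stimulated genes, 3 were lower under combo and 0 higher in members (median 0.587), and in Ly49-positive NK cells 2 of 9 were lower (median 0.582). Isg15, a ubiquitin-like protein, was at 105 and 28.5 CPM, Ifi206 at 53.7 and 16.5 CPM, and Ifi27l2a at 60.6 and 25.4 CPM. Ifi203 was at 324 and 239 CPM.

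Immediate early and AP-1 genes had 1 of 31 higher, the heat shock gene Hspa1a (22.9 and 53.9 CPM, with 56.1% of the lenvatinib UMIs in 1 cell), and 1 lower, Nr4a2 (median 0.900), with Junb at 2351 and 2623 CPM and Btg1 at 2194 and 2309 CPM. Glycolysis genes (17 measured, median 1.21 in members and 1.25 in Ly49-positive NK cells, with Gapdh at 1009 and 1272 CPM and Aldoa at 380 and 553 CPM), survival and death genes (12 measured, median 0.849, with Pim1 at 1016 and 724 CPM and Bcl2 at 406 and 563 CPM) and class I presentation genes (19 measured, median 0.978, with H2-K1 at 3421 and 3587 CPM and B2m at 2816 and 2524 CPM) had 0 genes past 2-fold in either direction.

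The 10 named genes with the highest ratios in members were genes of neutrophils, antimicrobial granules and acute phase, namely Ngp, Lcn2, Camp, Wfdc21, Retnlg, Chil3, S100a9, S100a8, Ifitm6 and Hp, with ratios from 36.2 to 11.0. S100a8, a calcium-binding protein abundant in neutrophils, was at 182 CPM under lenvatinib and 2815 CPM under combo. In the combo library 74.5% of the S100a8 UMIs and 88.9% of the Ngp UMIs of members lay in 1 cell, against 2.41% of the Retnlg UMIs. Of the 38 genes higher in members, 25 were at least 2-fold higher in B cells too. No minimum level was set for B cells in this count, and the share over all genes was not counted, so it is a description. The sum of 10 neutrophil markers went from 433 to 7343 CPM in members, from 454 to 4987 CPM in Ly49-positive NK cells and from 525 to 23845 CPM in B cells, and 0 of the 10 markers were at 0. Neutrophils went from 1.97% to 9.05% of kept cells. The part of free RNA and of doublets in these values was not tested. Without the 8 and 4 members that held many UMIs of another cell type, a step chosen after seeing the data, 30 genes were higher and 68 lower. The ratio without them was 3.99 for Ngp, 5.92 for S100a8, 5.73 for S100a9, 2.4 for Camp, 9.81 for Lcn2, 6.93 for Wfdc21, 5.58 for Chil3, 4.25 for Ifitm6 and 6.24 for Hp, while that of Retnlg was 20.9.

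The 10 named genes with the lowest ratios were Klra7 (0.129), Gzma (0.194), Eomes (0.227), Scd2 (0.230), Cbfa2t3 (0.231), Isg15 (0.271), Ube2c (0.295), Ccl1 (0.300), Ifi206 (0.307) and Atp8b2 (0.338). Scd2, a fatty acid desaturase, was at 91.0 and 20.9 CPM in members and 104 and 47.3 CPM in Ly49-positive NK cells. Cbfa2t3, a transcriptional corepressor, was at 57.7 and 13.3 CPM in members and 71.3 and 48.7 CPM in Ly49-positive NK cells. Gzma, Eomes and Klra7 were also lower in B cells (ratios 0.136, 0.143 and 0.182), at levels of 128 and 17.4, 10.1 and 1.45, and 7.97 and 1.45 CPM. For Eomes and Klra7 the B cell counts under combo were below the minimum of 10 UMIs, so their ratios are uncertain.

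**Figure D5:**
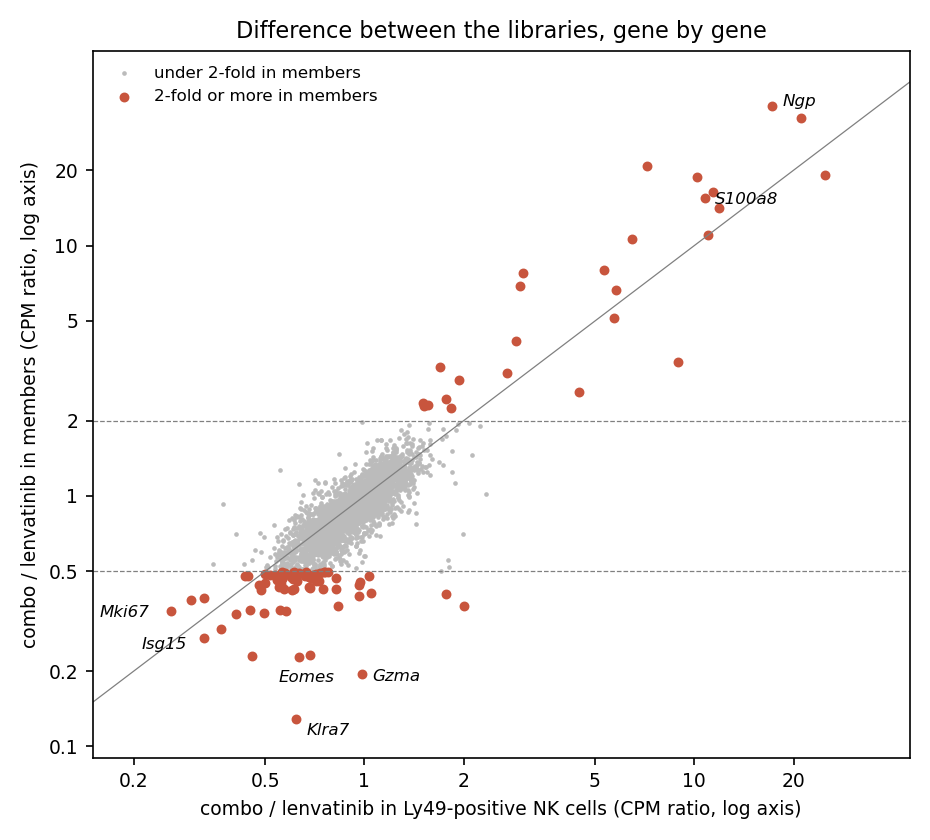
Each point is 1 gene measured in both classes, with its ratio of combo to lenvatinib in Ly49-positive NK cells (x, log axis) and in members (y, log axis), red where the ratio in members was at least 2 or at most 0.5, and the grey line marks equal ratios. Gzma lies at 0.981 on x and 0.194 on y, Mki67 at 0.259 and 0.347, and the neutrophil gene S100a8 at 10.8 and 15.5.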

How the data were processed

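The authors deposited raw counts of UMIs per gene and cell barcode for 2 libraries of live CD45+ cells, made with Cell Ranger (version 5.0.1 in the submitters' processing notes, 6.0.1 in the matrix header) and the mouse genome mm10. No normalization had been applied. Barcodes with over 6000 genes or over 25% mitochondrial UMIs were removed, the limits of the study. The members, gene lists and strata were chosen with earlier results of these data known.

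UMIs were summed over a class and library and given as CPM of the class total, with exact Poisson 95% intervals, and ratios with exact conditional binomial intervals (scipy 1.17.1). Genes needed 50 CPM in 1 group and 10 UMIs in each. Named genes were those of the rule, the genes of each list past 2-fold (up to 4 per direction) with its 2 most abundant, and the 10 highest and lowest ratios, without mitochondrial, ribosomal, hemoglobin, immunoglobulin and T cell receptor variable genes and unnamed models. Thinning drew 2000 UMIs per cell, leaving out 3 members under lenvatinib and 0 under combo. B cells had UMIs of Cd79a and Ms4a1 and none of Cd3 genes or Ncr1. Scrublet (scanpy 1.11.5) called doublets at an expected rate of 6%, and they were removed only in an alternative. The steps were tested on simulated data in which gene counts were Poisson draws without variation between cells. This does not cover genes whose UMIs lie mostly in few cells. Alternatives covered the cell filter, doublets, each limit of the rule, the CPM total, the weighting of cells, the minimum level and the thinning depth. Coordinates are those of GENCODE for mm10. Some genes of the lists are counted but not reported here by name.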

Additional observations from a re-analysis of the deposited data

Results flagged for a closer look

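Of 245 named genes measured in both classes, 7 (2.86%) had counting intervals on opposite sides of 1 in members and in Ly49-positive NK cells for the ratio of combo to lenvatinib, and whether the ratios differ between the classes was not tested. Over all 2883 genes measured in both classes there were 37 (1.28%). Pclaf, a PCNA-binding factor of DNA replication, was 1.26 in members (1.06 to 1.51) and 0.556 in Ly49-positive NK cells. Lgals1 was 0.691 and 1.12, Nfkbia 0.903 and 1.26, Klrc1 1.14 and 0.909, Ifng 0.869 and 1.07, Klre1 0.896 and 1.07, and Ier2 0.900 and 1.08. The intervals cover counting error only, and the median ratio over all genes was 0.897 in members and 0.943 in Ly49-positive NK cells.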

How the results depend on the processing

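Of 108 values under alternatives, 97 stayed within the interval of the reported value or, for counts of genes, within 1.5 times. With at least 3 UMIs of Gzmc, Itga1 and Cxcr6, the ratio of member shares of all cells was 0.761 (0.558 to 1.04). Within the NK gate it was 1.41 (1.05 to 1.89). With the rule on thinned cells these ratios were 0.647 (0.369 to 1.12) and 1.18 (0.687 to 2.005). In the other alternatives not chosen after seeing the data, the range stayed below 1 for all cells and included 1 within the NK gate. Leaving out members with a UMI of Klra1, Klra3, Klra7 or Klra9, an alternative chosen after seeing the data, turned the ratio of member shares of all cells from 0.690 to 1.12 (0.792 to 1.58), raised that within the NK gate to 2.08, and gave 136 genes lower under combo. Leaving out those with an Eomes UMI, also chosen after seeing the data, gave 144. With the rule applied to cells thinned to 2000 UMIs, which left 71 and 41 members, 61 genes were higher and 202 lower under combo, and the Hspa1a and Ube2c ratios moved to 0.597 and 1.02. Of the ratios of 283 named genes, 148 besides Hspa1a and Ube2c left their interval in that setting. There were 56 without other Ly49 genes, 51 without Eomes and 31 or fewer in each other setting. Among named genes past 2-fold and with a UMI in both libraries, Hspa1a and Ube2c changed direction with the rule on thinned cells, and 0 did in the other settings. For the other named genes the direction was not counted. A minimum of 20 CPM gave 92 higher and 250 lower, and 57 higher than in Ly49-positive NK cells. Without mitochondrial, ribosomal and hemoglobin genes in the total, 65 genes were higher. With a limit of 1 UMI for Gzmc, Itga1 and Cxcr6, 9 genes were lower than in Ly49-positive NK cells. For these the cause was not tested. The median ratio of genes in members lay between 0.878 and 0.950 over all alternatives. Ratios here were not divided by the median, and the 2-fold limits were set around 1. With 1 library per group, no replicate could be left out. No paired analysis was possible because each group has 1 library.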
